A study of Callithrix jacchus with 20 samples.

Results

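The genes described here are 41 genes listed for piRNA silencing, germ cell RNA-binding complexes, meiosis and late germ cells. Not all of them are limited to late germ cells, as DAZAP1 is present in many tissues. All 41 were taken by symbol and not by their values. Of the 41, 35 had a row among the 25102 genes counted, and 6 (PIWIL1, RNF17, BOLL, SYCE1, SPO11 and TEX101) had none. The tables list no gene at 0 in all 20 libraries, so a gene without a row had no read or was not counted under its symbol. The genes fell into 18 of the piRNA pathway, 7 for germ cell RNA-binding proteins, 14 of meiosis and 2 others. A filter on low counts left 14 of them for testing. The other 21 with a row had too few reads.

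Germ cells protect their genome with piRNAs, small RNAs bound by PIWI proteins. These are made and used in germ granules, which are held together by Tudor domain proteins and by helicases such as DDX4. DAZL and DDX4 are switched on in primates after primordial germ cells (PGCs) have entered the gonad. Meiosis starts later, when STRA8 is induced and the chromosome axis and the synaptonemal complex are built from cohesins such as REC8 and proteins such as SYCP1, SYCP2 and SYCP3. PGCs that have just been specified are known to carry SOX17, TFAP2C and PRDM1, but not these later genes.

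All 20 libraries came from a single marmoset (Callithrix jacchus) line of induced pluripotent stem cells, DPZ_cjiPSC2, with 2 biological replicates in each of 10 conditions. The cjiPSCs were kept in TeSR-E8 medium (TESR) or in cjPSCM, a medium modified from the one for expanded potential stem cells. From each medium the cells were turned into precursors of mesendoderm (pre-ME) with the GSK3 inhibitor CHIR, with Activin A (pre-ME + ActA) or without it (pre-ME − ActA). Pre-ME of the cjPSCM cultures then formed embryoid bodies with BMP4, LIF, SCF and EGF, and at day 4 the cells positive for both INTα6 and CXCR4 were sorted as cjPGCLCs (PGC-like cells) and the double-negative cells as somatic cells. The sample labels of all 8 sorted libraries instead name EpCAM, beside INTα6 in the titles and beside CXCR4 in the treatment, whereas the design text and the methods of the study name CXCR4 and INTα6. No gonadal or adult germ cells were among the libraries, so no library of this series shows these genes in a cell known to use them.

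Between 4784964 and 22067099 reads per library were counted on genes. The TESR pre-ME libraries were the deepest, with 18858625 to 22067099 reads, the cjPGCLC libraries held 6708915 to 14216617, and the somatic libraries 4784964 to 7171565. A level of 3 counts, used here as the floor of detection, stood for 0.136 to 0.627 CPM, counts scaled to the library size. Reads outside annotated genes made up 10.6% to 19.3% of the counted reads in the cjiPSC libraries and 17.2% to 23.2% in all others. In cjPSCM the shares overlap between cjiPSCs (12.2% and 19.3%) and pre-ME − ActA (19.6% and 17.2%). In the other comparisons of pre-ME or sorted cells with their cjiPSCs, both cjiPSC libraries had the lower share. Its part in the results was not tested. Levels below are raw counts or normalised counts (the count divided by the size factor of the library). They compare libraries for a given gene and not genes with each other, because they are not per length.

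Most of the 35 genes were at or under the floor in the cjiPSCs, in the cjPSCM pre-ME + ActA and in all sorted cells. In the cjiPSCs, 23 of 35 in TESR and 20 of 35 in cjPSCM had 3 counts or fewer in both libraries. The pre-ME of cjPSCM cultures had 19 such genes with ActA and 15 when it was left out. The TESR pre-ME had 14 in either case. Among sorted cells there were 23 in the somatic cells and 19 in the cjPGCLCs of the ActA protocol, and 23 and 20 without ActA. These numbers amount to 40% to 65.7% of the genes of the module, whereas 30.8% to 38.0% of all 25102 genes were this low in the same conditions.

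The low number in TESR pre-ME went together with depth. When the limit was set at 0.627 CPM, the level of 3 counts in the shallowest library, in place of 3 counts, 22 genes were low in TESR pre-ME + ActA and 21 in TESR pre-ME − ActA, and the 10 conditions lay between 21 and 27.

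**Figure D1:**
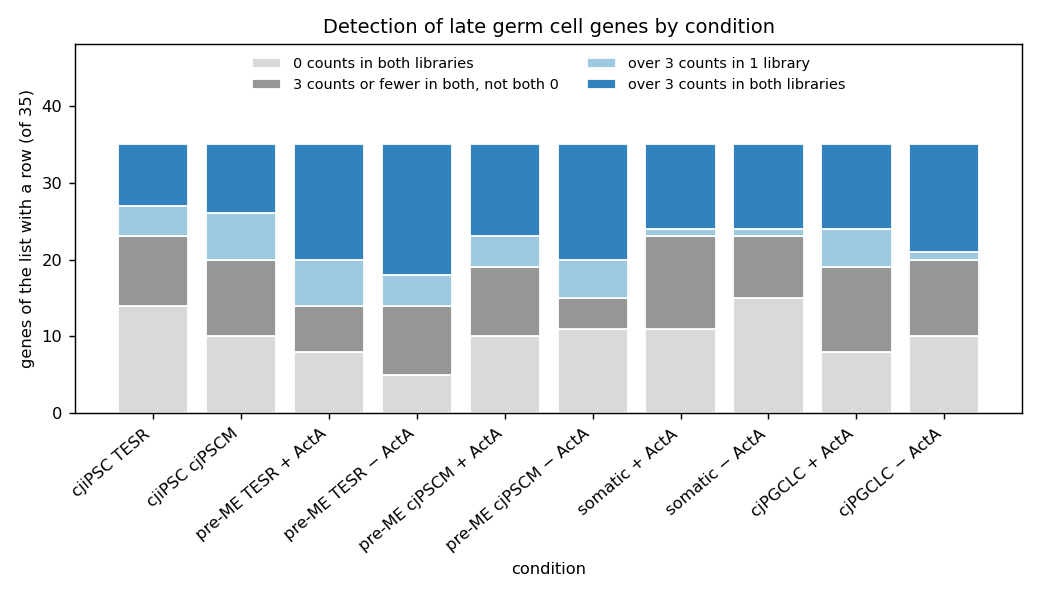
Detection of the 35 genes with a row. Each stacked bar is a condition, and its parts count the genes at 0 in both libraries, at 3 counts or fewer in both, over 3 counts in 1 library and over 3 counts in both. Genes over 3 counts in both libraries number 8 to 17, with the most in the deep TESR pre-ME libraries and 11 and 14 in cjPGCLCs.

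In the 4 cjPGCLC libraries together, 17 genes had 3 counts or fewer in each library, 7 of them had no read at all, and 11 were over 3 counts in all 4. No count over these 4 libraries allows a level of up to 0.0729 CPM, with counting error only. Across the series, 11 genes never exceeded 3 counts in any library: TDRD5, ASZ1 and DDX43 of the piRNA pathway, DDX4 and NANOS2 of the RNA-binding group, and SYCP2, SMC1B, HORMAD1, HORMAD2, DMC1 and STRA8 of meiosis. By contrast, 8 genes were over 3 counts in all 20 libraries, namely TDRD9, TDRD12, TDRKH, PLD6, DND1, NANOS1, DAZAP1 and SYCP1. SYCP1 was the only meiotic gene among these 8.

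**Figure D2:**
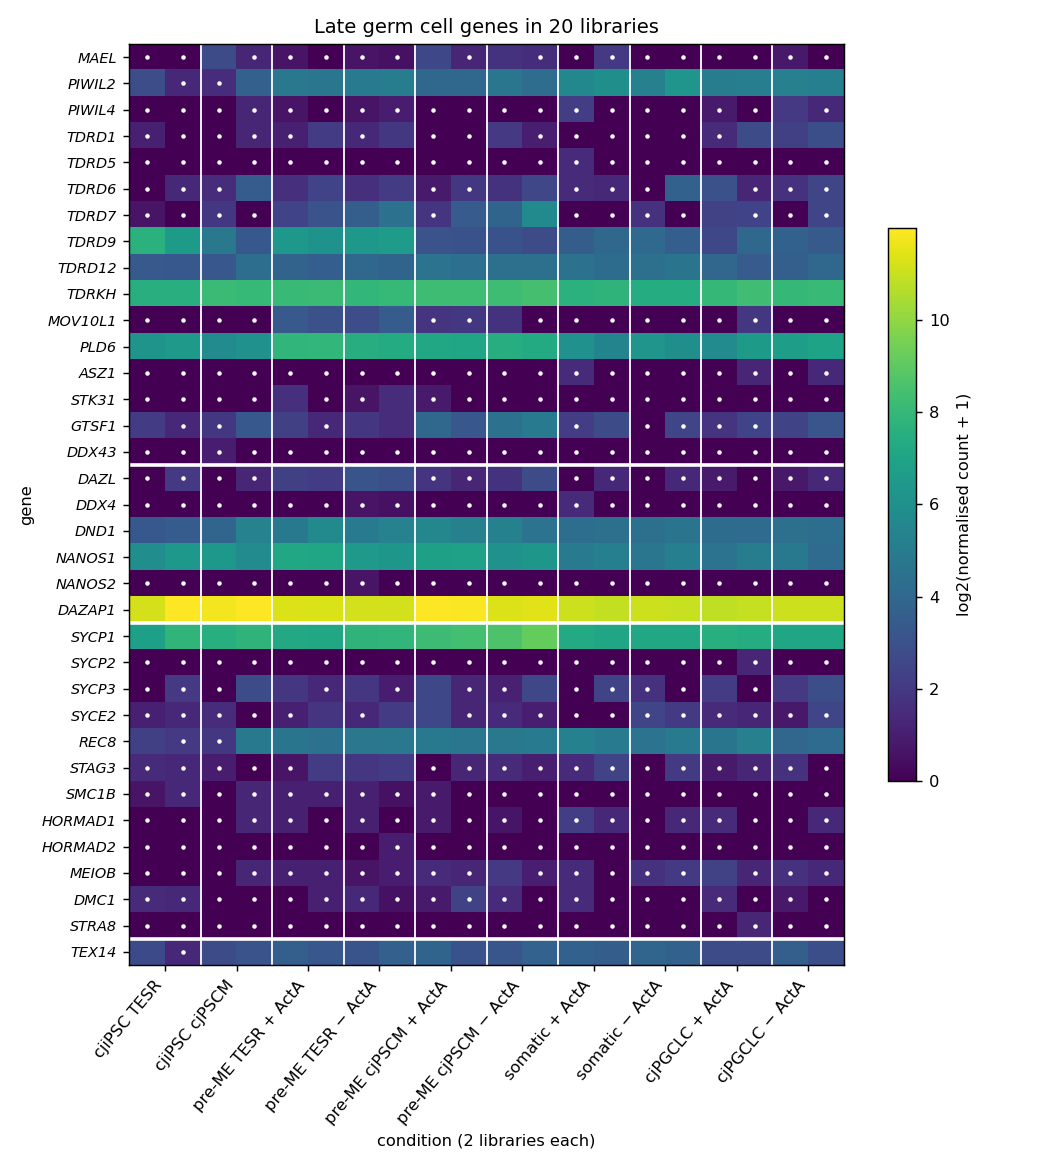
Levels of the 35 genes in the 20 libraries, as log2 of the normalised count plus 1. White lines separate conditions and gene classes, and a white dot marks a library with 3 raw counts or fewer. Dots cover most of the meiosis rows, while DAZAP1, TDRKH, PLD6, NANOS1 and SYCP1 carry none.

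DDX4 and DAZL, markers of gonadal germ cells, were at or under the floor in the cjPGCLCs. DDX4 (VASA), the helicase of the germ granule, had no read in any cjPGCLC library and 3 reads in all 20 libraries, 1 in a somatic library of the ActA protocol and 1 in each TESR pre-ME − ActA library. DAZL, an RNA-binding protein that licenses germ cells for sexual differentiation, had 1 and 0 counts in cjPGCLCs with ActA and 1 and 1 without, against 0 and 1 in both pairs of somatic libraries. Neither gene separated sorted cjPGCLCs from somatic cells at this depth.

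DAZL was most abundant outside the sorted cells. It had 14 and 14 counts in TESR pre-ME − ActA and 7 and 6 in TESR pre-ME + ActA, 4 and 6 in cjPSCM pre-ME − ActA and 3 and 1 in cjPSCM pre-ME + ActA, with 0 and 2 in TESR cjiPSCs and 0 and 1 in cjPSCM cjiPSCs. In normalised counts the TESR pre-ME libraries lay between 3.18 and 7.68. From the summed counts, DAZL was 8.81 times as high in TESR pre-ME − ActA as in TESR cjiPSCs, with a 95% counting interval of 2.22 to 76.4 (exact binomial). With ActA it was 4.36 times as high, with an interval of 0.988 to 39.8 that includes 1. DAZL did not pass the filter on low counts. In a fit without the filter it was called in TESR pre-ME − ActA over TESR cjiPSCs (edgeR adjusted p = 0.0224).

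Among the PIWI proteins, which bind piRNAs, PIWIL1 had no row, and PIWIL4 never exceeded 4 counts. Its counts were 1 and 0 in cjPGCLCs with ActA and 4 and 1 without, and those of the somatic cells were 2 and 0, then 0 and 0. In pre-ME it had 1 and 2 counts in the TESR − ActA libraries, 1 and 0 in TESR + ActA and none in the 4 cjPSCM libraries, and in cjiPSCs it had 0 and 1 in cjPSCM and none in TESR. MAEL, a piRNA factor of the germ granule, had 1 read over the 4 cjPGCLC libraries (0 and 0 with ActA, 1 and 0 without). Its somatic counts were 0 and 2 with ActA and 0 and 0 without. MAEL reached 6 and 1 counts in cjPSCM cjiPSCs, 6 and 1 in cjPSCM pre-ME + ActA and 4 and 2 in cjPSCM pre-ME − ActA, and stayed at 0 or 1 in the 6 TESR libraries. By the summed counts MAEL was 13.5 times lower in TESR than in cjPSCM pre-ME + ActA, with a 95% counting interval of 1.73 to 607. In pre-ME − ActA it was 4.40 times lower, with an interval of 0.786 to 44.5 that includes 1. PIWIL4 and MAEL did not pass the filter on low counts, and the fit without it called neither.

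SYCP3, a lateral element protein of the synaptonemal complex, had 4 and 0 counts in cjPGCLCs with ActA and 4 and 4 without, and 0 and 3, then 1 and 0, in the matching somatic libraries. Its counts were 0 and 2 in TESR cjiPSCs, 0 and 4 in cjPSCM cjiPSCs, 6 and 1 in cjPSCM pre-ME + ActA, 2 and 5 in cjPSCM pre-ME − ActA, 5 and 2 in TESR pre-ME − ActA and 5 and 3 in TESR pre-ME + ActA. In no library did SYCP3 exceed 6 counts, and only in the − ActA protocol were both cjPGCLC libraries above both somatic ones. DMC1, the recombinase of meiosis, had 2 and 0 counts in cjPGCLCs with ActA and 1 and 0 without, and 1 and 0, then 0 and 0, in the somatic cells. Elsewhere DMC1 had 3 and 1 in TESR cjiPSCs, none in cjPSCM cjiPSCs, 1 and 3 in cjPSCM pre-ME + ActA, 3 and 0 in cjPSCM pre-ME − ActA, 3 and 1 in TESR pre-ME − ActA and 0 and 2 in TESR pre-ME + ActA. STRA8, the inducer of meiosis, and SYCP2 each had 1 read in the whole series, both in the second cjPGCLC library with ActA, and neither had a second read to set beside it. The synaptonemal complex protein SYCE2, the meiotic cohesin STAG3 and the recombination factor MEIOB had up to 7, 7 and 5 counts per library.

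The first comparison asked whether cjPGCLCs carried these genes above the somatic cells sorted from embryoid bodies of the same protocol. None of the 14 tested genes was called in either protocol (edgeR, log2 fold change over 2 in size at an adjusted p under 0.05), while 1.58% of the 15797 genes tested were called with ActA and 2.84% without. By the adjusted p alone there were 0 and 1 of the 14, beside 764 and 1522 of all genes tested, and DESeq2 called 0 and 0. The median log2 fold change of the 14 was −0.19 with ActA and −0.18 without, beside 0.01 and 0 over all genes. In bulk libraries, fewer cells of a type and less RNA per cell cannot be told apart.

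The 1 gene that passed the adjusted p alone was TDRKH, a Tudor protein of the mitochondrial surface that holds PIWI proteins during piRNA trimming. TDRKH passed without ActA, where 1522 of all 15797 genes tested did so, which does not set it apart from genes in general. Without ActA its normalised counts were 254 and 284 in cjPGCLCs and 173 and 173 in somatic cells, and with ActA 255 and 317 against 202 and 222. In both protocols each cjPGCLC library was above each somatic library. The log2 fold change was 0.65 (SE 0.16, adjusted p = 0.0133) without ActA, under the fold change threshold, and 0.43 (SE 0.15, adjusted p = 0.132) with ActA.

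PIWIL2, the best detected PIWI gene, was not higher in cjPGCLCs. Its normalised counts were 33.0 and 34.1 in cjPGCLCs and 47.8 and 61.1 in somatic cells with ActA, and 36.5 and 34.7 against 36.9 and 74.3 without. Every cjPGCLC library lay below every somatic library of its protocol. The log2 difference was −0.70 (95% interval −1.60 to 0.20, edgeR adjusted p = 0.503) with ActA and −0.66 (−1.56 to 0.24, adjusted p = 0.433) without. SYCP1, the transverse filament protein of the synaptonemal complex, was at 189 and 172 normalised counts in cjPGCLCs and 163 and 133 in somatic cells with ActA, and at 136 and 136 against 141 and 141 without. Its log2 difference was 0.31 (95% interval −0.26 to 0.87) and −0.03 (−0.62 to 0.55).

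**Figure D3:**
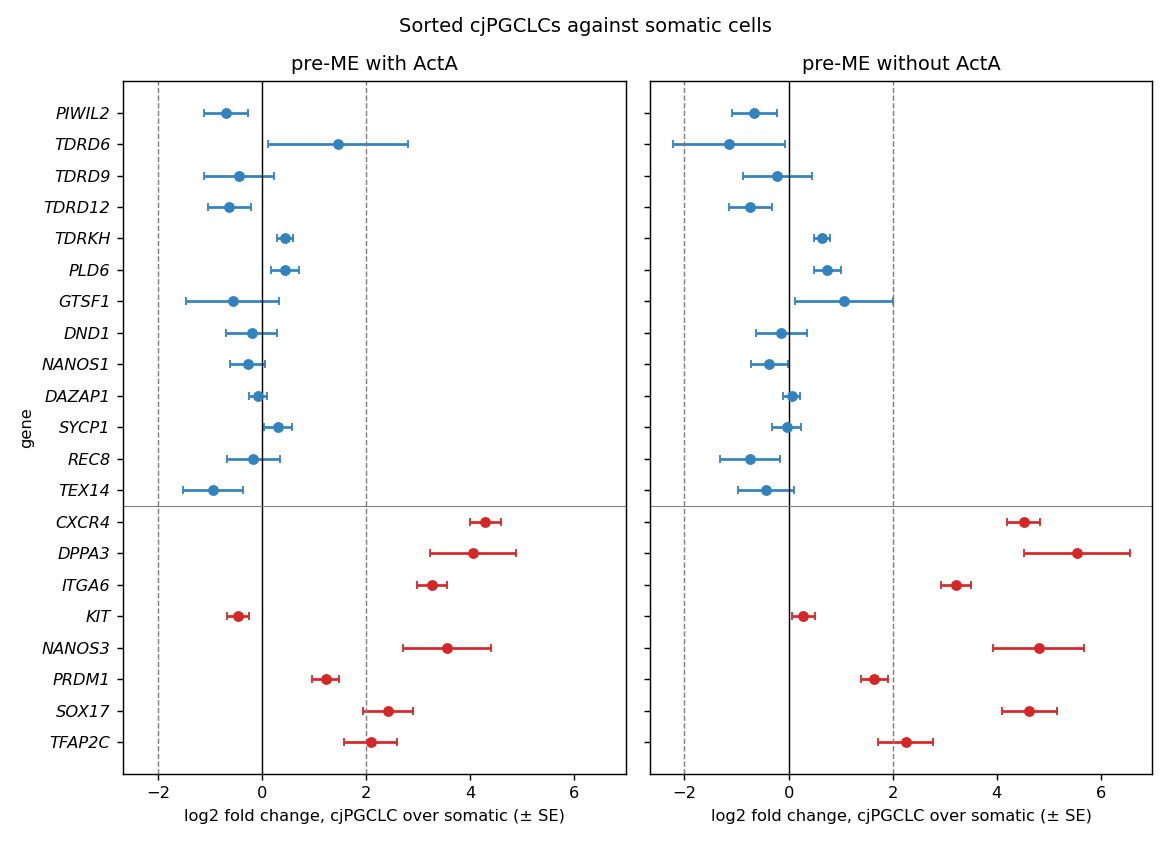
Log2 fold change of cjPGCLCs over somatic cells with its standard error, for the tested genes in blue and 8 early PGC genes in red, in the protocols with and without ActA; the dashed lines are the threshold of 2. TDRD7 is left out because its somatic libraries held 0 or 1 counts, beside 5 and 3 in cjPGCLCs with ActA and 0 and 3 without. The blue points drawn lie within the lines, and nothing is shown for TDRD7. Points of TDRD6 and GTSF1 also rest on few somatic counts. TDRD6 had 1 and 1 with ActA and 0 and 8 without, and GTSF1 0 and 3 without ActA. SOX17, TFAP2C and the genes of the sort, CXCR4 and ITGA6, lie beyond the upper line in both protocols.

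For comparison, 8 early PGC genes were all tested between the sorted cells. CXCR4 and ITGA6, whose proteins served for the sort, are no finding, and 4 of the other 6 were called higher in cjPGCLCs in both protocols. SOX17 was higher in cjPGCLCs by a log2 fold change of 2.42 with ActA and 4.63 without, and TFAP2C by 2.09 and 2.25. DPPA3 had 59 and 23 counts with ActA and 62 and 31 without in cjPGCLCs, against at most 3 in a somatic library, and NANOS3 50 and 10, then 81 and 28, against at most 2. PRDM1 was higher by 1.22 and 1.65, past the adjusted p and under the threshold, and KIT had −0.47 (adjusted p = 0.301) with ActA and 0.28 (adjusted p = 0.530) without. The endoderm gene FOXA2 was also higher in cjPGCLCs, at 227 and 59, then 682 and 226 counts, against at most 2 in a somatic library. The summed normalised level of the 6 genes not used for the sort was 2157 to 2305 in cjPGCLCs and 1363 to 1649 in somatic cells with ActA, and 3580 to 3735 and 918 to 1199 without. That of 4 endoderm genes was 1460 to 5343 and 717 to 2205. The part of other cell types in the levels of the listed genes was not tested.

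Whether ActA altered the difference between the sorted cells was tested as an interaction. None of the 14 genes passed (edgeR adjusted p alone), 0 had an unadjusted p under 0.05, DESeq2 called 0, and 0.0633% of all genes passed.

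Compared with the cjPSCM cjiPSCs, the only gene of the 14 that was called was PIWIL2, and it was up-regulated in both sorted populations. The somatic and cjPGCLC comparisons share the same 2 cjiPSC libraries, in which PIWIL2 had 1.88 and 11.9 normalised counts (2 and 8 reads). All 8 sorted libraries were above both, at 33.0 to 74.3. The log2 fold change was 2.48 (SE 0.56, adjusted p = 0.00157) in cjPGCLCs with ActA and 2.57 (SE 0.55, adjusted p = 0.00107) without, and 3.18 (SE 0.55, adjusted p = 0.000151) and 3.23 (SE 0.55, adjusted p = 0.000135) in the somatic cells.

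Thus 1 of 14 genes was called in each comparison, where 9.51% and 10.8% of all genes were called for cjPGCLCs with and without ActA, and 11.2% and 11.8% for the somatic cells. The size of the PIWIL2 change rested on the 2 cjiPSC libraries. Without cjiPSC replicate 1 the cjPGCLC values were 1.52 and 1.62 and were no longer called, and without replicate 2 they were 4.06 and 4.16. The somatic calls held in all 20 fits that left out a library. A fit on the libraries of each comparison only gave the cjPGCLCs nearly the same values, 2.42 and 2.50, and did not call them.

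PIWIL2 rose in the TESR cultures too, already at the pre-ME stage. It had 6.06 and 1.49 normalised counts in TESR cjiPSCs, 30.2 and 31.8 in TESR pre-ME − ActA and 26.8 and 25.5 in TESR pre-ME + ActA. All pre-ME libraries exceeded both cjiPSC libraries. The log2 fold change was 2.72 (SE 0.52, adjusted p = 0.000759) without ActA and 2.48 (SE 0.53, adjusted p = 0.00187) with it. Without TESR cjiPSC replicate 1 these values became 4.31 and 4.06. In cjPSCM pre-ME the levels were lower, 15.9 and 15.4 with ActA and 25.3 and 18.8 without, and the change without ActA (1.92, adjusted p = 0.0138) did not reach the fold change threshold.

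In the sorted cells NANOS1, an RNA-binding repressor of translation, was lower than in cjPSCM cjiPSCs by adjusted p. Its log2 fold changes lay between −1.53 and −1.07 and did not reach the threshold. DAZAP1, an RNA-binding protein present in many tissues, was lower in the sorted cells by −0.97 to −0.79, likewise under the threshold.

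**Figure D4:**
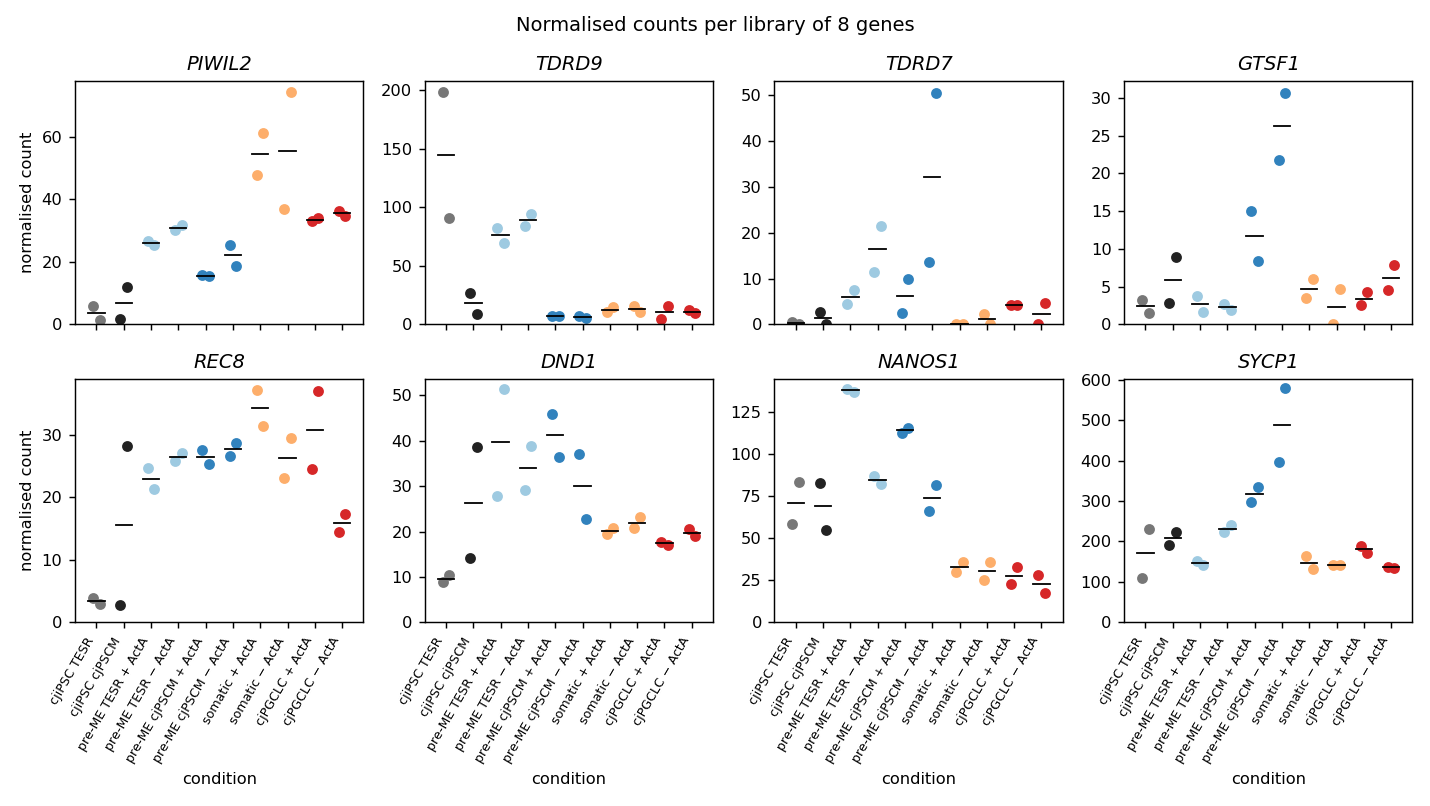
Normalised counts of PIWIL2, TDRD9, TDRD7, GTSF1, REC8, DND1, NANOS1 and SYCP1 in each of the 20 libraries (points), with the mean of each condition (bar, n = 2). PIWIL2 is highest in the sorted cells, TDRD9 in all TESR conditions, and TDRD7, GTSF1 and SYCP1 in cjPSCM pre-ME − ActA.

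TDRD9, an RNA helicase with a Tudor domain that acts in piRNA silencing of transposons, followed the culture medium. The TESR cjiPSCs had 198 and 90.8 normalised counts and the cjPSCM cjiPSCs 27.3 and 8.89. TESR pre-ME had 83.9 and 94.5 without ActA and 82.6 and 69.5 with it, whereas cjPSCM pre-ME had 7.07 and 5.94 without and 7.51 and 7.02 with it. The 8 sorted libraries, all of which descend from cjPSCM cultures, lay between 5.07 and 16.1. Hence all 6 TESR libraries were above all 14 of the cjPSCM lineage.

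The log2 fold change of TDRD9 was −2.95 in cjPSCM over TESR cjiPSCs (SE 0.45, adjusted p = 8.05e-05). In pre-ME the difference of TESR over cjPSCM was 3.37 with ActA (SE 0.52, adjusted p = 0.00021) and 3.73 without (SE 0.50, adjusted p = 5.61e-05). All 3 calls held in each of the 20 fits that left out a library, in which the difference between cjiPSC media ran from −4.10 to −2.23. TDRD9 was the only one of the 14 called between the cjiPSC media, where 9.18% of all genes were called. In pre-ME, TDRD9 and GTSF1 were called, 2 of 14, beside 4.12% of all genes with ActA and 3.91% without.

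GTSF1, a small zinc finger protein that PIWI proteins need to cut their targets, was highest in cjPSCM pre-ME. It had 21.8 and 30.7 normalised counts there without ActA and 15.0 and 8.43 with it, against 2.83 and 8.89 in cjPSCM cjiPSCs, 3.31 and 1.49 in TESR cjiPSCs, 2.74 and 1.87 in TESR pre-ME − ActA and 3.83 and 1.59 in TESR pre-ME + ActA. The sorted cells returned to low values, 2.54 and 4.27 in cjPGCLCs with ActA, 4.56 and 7.88 without, and 0 to 5.96 in the 4 somatic libraries. The 2 libraries of cjPSCM pre-ME − ActA stood above all 18 others.

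GTSF1 rose from cjPSCM cjiPSCs to pre-ME − ActA by 2.29 on the log2 scale (SE 0.58, adjusted p = 0.00585). From there it was lower by −2.16 in cjPGCLCs (SE 0.56, adjusted p = 0.00606). In the somatic cells, with 0 and 3 counts, it was 9.22 times lower by the summed counts (95% counting interval 3.02 to 45.8, edgeR adjusted p = 0.00228). TESR pre-ME was below cjPSCM pre-ME by −3.45 without ActA (SE 0.56, adjusted p = 0.000399) and by −2.12 with it (SE 0.62, adjusted p = 0.0193). These comparisons share the pre-ME libraries of the cjPSCM cultures.

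Several GTSF1 calls depended on a library. The rise to pre-ME − ActA was lost without cjPSCM cjiPSC replicate 1 (1.58) and in a fit on the libraries of the comparison only. The fall in cjPGCLCs was lost without pre-ME − ActA replicate 2 (−1.93) or cjPGCLC − ActA replicate 1 (−1.73), and the difference between media with ActA was lost without cjPSCM pre-ME + ActA replicate 1 (−1.58) or TESR pre-ME + ActA replicate 2 (−1.62). Without somatic − ActA replicate 2, which leaves a library with 0 counts, the fitted somatic value was −7.93 on the log2 scale, against −3.22 with both libraries.

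TDRD7, a Tudor protein of germ granules that is also expressed in the lens, was likewise highest in pre-ME − ActA, with replicates that lay apart. Its raw counts were 23 and 51 (13.6 and 50.5 normalised counts) in cjPSCM pre-ME − ActA and 21 and 46 (11.5 and 21.5) in TESR pre-ME − ActA. With ActA they were 3 and 7 in cjPSCM pre-ME and 8 and 14 in TESR pre-ME. The cjiPSCs had 3 and 0 in cjPSCM and 1 and 0 in TESR, the cjPGCLCs 5 and 3 with ActA and 0 and 3 without, and the somatic cells 0 and 0 with ActA and 1 and 0 without.

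From the summed counts, TDRD7 was 16.2 times as high in cjPSCM pre-ME − ActA as in its cjiPSCs (95% counting interval 5.32 to 80.2) and 42.2 times in TESR pre-ME − ActA (7.32 to 1691). It was 17.9 times lower in the cjPGCLCs made without ActA than in their pre-ME (5.90 to 88.9), and 30.1 times lower in the somatic cells (5.24 to 1205). edgeR called all 4, with adjusted p-values of 0.00557, 0.00562, 0.00434 and 0.00694. Each call was lost when a single library was left out. These were cjPSCM pre-ME − ActA replicate 2 for the rise in cjPSCM (2.96 as log2) and TESR cjiPSC replicate 1 for the rise in TESR, where the low group is then at 0 counts. For the cjPGCLCs they were pre-ME − ActA replicate 2 (−3.03) or cjPGCLC − ActA replicate 1 (−2.70), and for the somatic cells pre-ME − ActA replicate 2 (−3.75) or somatic − ActA replicate 2 (−3.73). Without cjPSCM cjiPSC replicate 1, cjPGCLC − ActA replicate 2 or somatic − ActA replicate 1, each of which leaves the low group at 0 counts, the fitted values were 8.13, −8.18 and −8.19.

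TDRD7 was also the only gene called between pre-ME + ActA and pre-ME − ActA from cjPSCM, at −2.49 (SE 0.82, adjusted p = 0.0435), where 2.11% of all genes were called. This call was made in 8 of 20 fits that left out a library. Without pre-ME − ActA replicate 2 the value was −1.33, and DESeq2 called 0 genes. In TESR pre-ME no gene of the 14 was called for ActA (DESeq2 0), beside 2% of all genes. By the adjusted p alone 0 passed, beside 1396 of all 15797 genes tested.

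MOV10L1, the helicase that hands piRNA precursors to PIWI proteins, was at 0 in all 4 cjiPSC libraries and in 7 of 8 sorted libraries (the other had 2 counts), and had 11 and 22 counts in TESR pre-ME − ActA and 17 and 13 in TESR pre-ME + ActA. It was at least 2.68-fold higher in each of these pre-ME groups than in TESR cjiPSCs, computed against 3 counts per library. The cjPSCM pre-ME had 3 and 2 counts with ActA and 4 and 0 without. MOV10L1 did not pass the filter on low counts. A fit without the filter called it in TESR pre-ME over TESR cjiPSCs with ActA (edgeR adjusted p = 0.000286) and without (adjusted p = 0.00022), and in TESR over cjPSCM pre-ME − ActA (2.43 as log2, adjusted p = 0.0419). All 4 TESR pre-ME libraries stood above the other 16.

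Of the remaining piRNA genes, PLD6, a mitochondrial nuclease-like protein that helps to form piRNA 5′ ends and also serves mitochondrial fusion, was higher in pre-ME than in cjiPSCs of both media by adjusted p. Its log2 fold changes were 1.10 to 1.58 and under the threshold. TDRD1, TDRD6 and STK31 had at most 6, 8 and 4 counts per library. TDRD1 had 2 and 4 counts in cjPGCLCs with ActA and 5 and 4 without, and 0 in all 4 somatic libraries. Computed against 3 counts per somatic library, TDRD1 was at least 0.760 and 0.885 times as high in cjPGCLCs, which bounds no rise. It had 3 and 6 counts in TESR pre-ME − ActA and 2 and 6 in TESR pre-ME + ActA. TDRD1 did not pass the filter on low counts, and the fit without it did not call TDRD1 between the sorted cells. TDRD12 had between 6 and 35 counts and was called in no comparison.

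REC8, the cohesin that holds sister chromatids in meiosis, was higher in TESR pre-ME than in TESR cjiPSCs. The TESR cjiPSCs had 3.86 and 2.98 normalised counts. The TESR pre-ME had 25.8 and 27.1 without ActA and 24.6 and 21.2 with it, so that both groups lay clear of the cjiPSCs. The log2 fold change was 2.85 without ActA (SE 0.62, adjusted p = 0.00195) and 2.64 with it (SE 0.63, adjusted p = 0.00407), and both calls held in all 20 fits that left out a library. IPO4, which overlaps REC8 in a RefSeq annotation, had log2 fold changes of 0.07 and 0.13 in the same comparisons.

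In the cjPSCM cultures the REC8 level of the start was uncertain, because the 2 cjiPSC libraries had 2.83 and 28.2 normalised counts (3 and 19 reads). Pre-ME had 27.5 and 25.3 with ActA and 26.5 and 28.7 without. The cjPGCLCs had 24.5 and 37.0 with ActA and 14.4 and 17.3 without, and the somatic cells 37.2 and 31.3, then 23.1 and 29.4. None of these was called against cjiPSCs. In the same cjiPSC replicate 2, 19.3% of reads fell outside genes against 12.2% in replicate 1. By normalised counts PIWIL2, GTSF1 and DND1 were also among the genes higher in replicate 2. TDRD9, NANOS1, TDRKH, MAEL and TDRD7 were higher in replicate 1. The part of the reads outside genes in these values was not tested.

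SYCP1 differed from the other meiotic genes in its counts, 61 to 674 per library. Its normalised counts were 110 and 231 in TESR cjiPSCs, 191 and 224 in cjPSCM cjiPSCs, 297 and 336 in cjPSCM pre-ME + ActA, 397 and 579 in cjPSCM pre-ME − ActA, 222 and 240 in TESR pre-ME − ActA and 152 and 141 in TESR pre-ME + ActA. The 4 cjPSCM pre-ME libraries were the 4 highest of the series. In pre-ME − ActA the gene was higher than in cjPSCM cjiPSCs by 1.27 (SE 0.25, adjusted p = 0.000944), and from there it was lower by −1.85 in cjPGCLCs (adjusted p = 2.97e-05) and −1.82 in somatic cells (adjusted p = 4.41e-05). These passed the adjusted p and not the fold change threshold.

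DND1, an RNA-binding partner of NANOS proteins that is needed for germ cell survival, rose in TESR pre-ME. It had 8.81 and 10.4 normalised counts in TESR cjiPSCs, 29.1 and 38.8 in pre-ME − ActA and 27.9 and 51.5 in pre-ME + ActA. The log2 fold change was 2.08 with ActA (SE 0.44, adjusted p = 0.00191) and 1.86 without (SE 0.45, adjusted p = 0.00399), the second of which was under the threshold. The call with ActA was lost without TESR cjiPSC replicate 1 (1.95) or pre-ME + ActA replicate 2 (1.57). WDR55, which overlaps DND1, had 0.40 with ActA and 0.04 without.

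In the cjPSCM lineage DND1 had 14.1 and 38.5 normalised counts in cjiPSCs, 45.9 and 36.5 in pre-ME + ActA and 37.1 and 22.8 in pre-ME − ActA. All 8 sorted libraries were close together at 17.1 to 23.2. DND1 therefore did not mark the cjPGCLCs, in which it had 17.7 and 17.1, then 20.5 and 18.9.

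NANOS1 was lower in sorted cells than in pre-ME. Pre-ME + ActA from cjPSCM had 113 and 115 normalised counts and pre-ME − ActA 66.0 and 81.2, the cjPSCM cjiPSCs 82.9 and 54.8 and the TESR cjiPSCs 58.4 and 83.4. The cjPGCLCs had 22.8 and 32.7 with ActA and 28.1 and 17.3 without, and the somatic cells 30.1 and 35.8, then 25.4 and 35.6. TESR pre-ME had 86.7 and 81.9 without ActA and 138 and 137 with it. All 8 sorted libraries were below all 12 unsorted ones.

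The fall from pre-ME + ActA to cjPGCLCs was −2.06 on the log2 scale (SE 0.30, adjusted p = 3.64e-05). It was the only call with ActA and was lost, at −1.80, without cjPGCLC + ActA replicate 1. Without ActA (−1.63), and in the somatic cells (−1.79 and −1.26), NANOS1 passed the adjusted p alone. EIF3A, which overlaps NANOS1, was lower in the first of these comparisons by −0.75.

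Set out by step, pre-induction from TESR gave 3 calls of 14 with ActA (PIWIL2, REC8, DND1), where 6.96% of all genes were called, and 3 without (PIWIL2, REC8, TDRD7), where 7.86% were. From cjPSCM it gave 0 with ActA (5 with an unadjusted p under 0.05, DESeq2 0) beside 3.06%, and 2 without (GTSF1, TDRD7) beside 5.27%. All of these calls were increases. From pre-ME to the sorted cells all calls were decreases, with 1 of 14 in cjPGCLCs with ActA (NANOS1) beside 8.36% of all genes and 2 without (GTSF1, TDRD7) beside 7.88%. In the somatic cells they were 0 with ActA (7 with an unadjusted p under 0.05) beside 8.3% and 2 without (GTSF1, TDRD7) beside 7.94%. DESeq2 called 1 gene, TDRD7, in the somatic cells with ActA. The comparisons from pre-ME and those from cjiPSCs share libraries, so their values are given side by side and are not independent.

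Further genes of the same pathways were counted in the same way, from lists that do not hold the 41. Of 20 other piRNA and germ granule genes 18 had a row and 12 were tested, of 38 other meiosis genes 27 had a row and 14 were tested, and of 22 genes that silence germline genes through PRC1.6 and DNA methylation 22 had a row and 21 were tested. In cjPGCLCs against somatic cells 0 were called in each list in both protocols. At an unadjusted p under 0.05 there were 2 and 1 of the piRNA list, 1 and 1 of the meiosis list and 4 and 3 of the silencing list with and without ActA, and DESeq2 called 0. The share of all genes under that p is not given, so these numbers are not read as a result about the lists. The medians lay between −0.13 and −0.03.

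Outside the sort, single genes of these lists were called and are named after their values were seen. They are not a result about the lists. Of all genes, 9.51% and 10.8% were called in cjPGCLCs and 11.2% and 11.8% in somatic cells over cjPSCM cjiPSCs. In TESR pre-ME over cjiPSCs 6.96% and 7.86% were called with and without ActA. Between media the shares were 9.18% in cjiPSCs, and 4.12% and 3.91% in pre-ME. HFM1, a helicase of meiotic crossing over, was higher than in cjPSCM cjiPSCs by 2.15 and 2.42 in cjPGCLCs and by 2.67 and 2.26 in somatic cells with and without ActA, and it rose in TESR pre-ME by 2.93 and 3.03. Its cjPSCM cjiPSC libraries lay apart, at 13.2 and 74.1 normalised counts. PNLDC1, the exonuclease that trims piRNAs, rose in TESR pre-ME by 2.49 with ActA and 2.57 without. TDRD10, a Tudor protein, was higher in cjPSCM than in TESR, by 2.46 in cjiPSCs, and was lower in TESR than in cjPSCM pre-ME by −2.34 and −2.47.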

How the data were processed

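Poly(A) RNA of 20 samples was sequenced. The labels name a directional library kit and the methods of the study the kit of that series without this word, so whether the reads keep strand is not settled. The authors checked the paired-end reads with FastQC 0.11.8, mapped them with STAR 2.7.0a to calJac4, a marmoset assembly, and used HTSeq-count 0.11 to give the raw counts per gene that were deposited. They also deposited a normalised signal, the count divided by the DESeq2 size factor of the library, whose values could be recomputed if the 2 lines that HTSeq-count adds as a summary were kept. These lines, 10.6% to 23.2% of reads outside genes and 0.268% to 0.350% ambiguous, stayed out of library sizes and tests. The annotation release and the strand setting of the counting are not given in the sources used here, so reads of overlapping genes cannot be told apart. In a RefSeq table of the assembly calJac240_pri, which holds all 41 symbols and is not the build of the counts, 14 of the genes overlap another protein-coding gene, 7 of them among those tested (TDRD6, TDRD9, GTSF1, DND1, NANOS1, REC8 and TEX14).

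The quasi-likelihood F-test of edgeR 4.0.16 (R 4.3.3) was run on raw counts with TMM factors, after it was tested on simulated data. The model had 1 coefficient per condition over 20 libraries, a common dispersion of 0.0203 and 10 degrees of freedom left. The filter by condition left 15797 genes, over which p-values were adjusted by Benjamini-Hochberg within each comparison. A gene was called if its log2 fold change exceeded 2 in size at an adjusted p under 0.05, and interactions by the adjusted p alone. Standard errors were derived from F. Replicates are independent biological ones per the labels and the paper, all from 1 line, and p-values measure the spread between these samples. A group at 0 counts was set to 3 counts per library, and a ratio to a group of 1 to 3 counts has an exact binomial interval at 95%, for counting error only. Tables used Python 3.11.15, pandas 2.3.3, scipy 1.17.1 and matplotlib 3.10.9.

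The genes and lists were chosen with earlier results of these data known. Values in every library are given for each gene called in 1 or more comparisons and for DAZL, DDX4, MAEL, PIWIL1, PIWIL2, PIWIL4, SYCP3 and DMC1. MOV10L1, TDRD1, TDRKH and SYCP1 and the genes named from other lists outside the sort were chosen after their values were seen. So were the overlapping genes and the 6 comparisons with pre-ME as the reference or between media in pre-ME. Replicate numbers were not used to pair the libraries in the main model. Of 45 pairs of conditions, 8 had correlated deviations over 0.1 (median 0.0245, range −0.204 to 0.258). The correlation was 0.253 in cjPSCM and 0.251 in TESR between pre-ME with and without ActA. Between cjPGCLCs and somatic cells it was 0.131 with ActA and 0.0329 without, so whether the numbers pair these libraries is not settled. The replicate block was 1 term shared by all 10 conditions and does not model pairs within a sort. Alternatives were DESeq2 1.42.0, its size factors, no filter, a mean of 1 CPM, the libraries of a comparison only, a replicate block and each library left out.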

Additional observations from a re-analysis of the deposited data

How the results depend on the processing

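No result changed direction under any alternative run. Counts of called genes moved with the threshold. By the adjusted p alone they were 1 in cjPGCLCs over somatic cells without ActA, 3 and 4 in cjPGCLCs over cjiPSCs with and without ActA, 4 and 4 in somatic cells over cjiPSCs, 3 between cjiPSC media, 2 for ActA in cjPSCM pre-ME, 1 and 5 in cjPSCM pre-ME over cjiPSCs, 6 and 6 in TESR pre-ME over cjiPSCs, 6 and 5 in cjPGCLCs over pre-ME, 6 and 7 in somatic cells over pre-ME, and 5 between media in pre-ME + ActA. Of all 15797 genes tested, 1522 passed in the first of these. Over cjiPSCs 8047 and 8287 passed in cjPGCLCs, 8507 and 8559 in somatic cells, 2802 and 5996 in cjPSCM pre-ME and 5446 and 5774 in TESR pre-ME. Between cjiPSC media 5716 passed, and for ActA in cjPSCM pre-ME 3306. Over pre-ME 7638 and 6321 passed in cjPGCLCs and 7584 and 6671 in somatic cells, and 4328 between media in pre-ME + ActA. DESeq2 called 2 between cjiPSC media (TDRD9 and REC8), 0 for ActA in cjPSCM pre-ME, 1 in somatic cells over pre-ME with ActA and 1 between media in pre-ME + ActA. Over all genes it called 1366, 252, 1233 and 603 in the same order. Without the filter on low counts there were 2 between cjiPSC media, 5 and 5 in TESR pre-ME over cjiPSCs, 3 between media in pre-ME − ActA and 1 in somatic cells over pre-ME with ActA. Over all genes there were 1615, then 1282 and 1433, then 700 and 1424, in the same order. With a mean of at least 1 CPM, which left TDRD7 and GTSF1 out of the genes tested, there were 0 for ActA in cjPSCM pre-ME, 0 in cjPSCM pre-ME − ActA over cjiPSCs, 0 in cjPGCLCs and 0 in somatic cells over pre-ME without ActA, 1 and 1 between media in pre-ME and 2 in TESR pre-ME − ActA over cjiPSCs. The numbers over all genes were 246, 609, 901, 1004, then 504 and 497, then 937, in the same order. On the libraries of a comparison only, 0 were called in cjPGCLCs over cjiPSCs in both protocols and 0 in cjPSCM pre-ME − ActA over cjiPSCs, and 4 and 4 in TESR pre-ME over cjiPSCs. Of all genes, 949 and 1137, then 342, then 1047 and 1183 were called in the same order. The cause was not tested where none is named.

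For fits that left out a library, counts of calls are given for the listed genes only, without numbers over all genes. Whether the listed genes moved more than all genes in these fits therefore cannot be told. Each library was left out in turn. The counts then lay between 0 and 2 in cjPGCLCs over cjiPSCs in both protocols, 1 and 2 in somatic cells over cjiPSCs in both, 1 and 3 between cjiPSC media, 0 and 1 for ActA in cjPSCM pre-ME, 0 and 2 in cjPSCM pre-ME + ActA and 1 and 5 in pre-ME − ActA over cjiPSCs. They lay between 3 and 5 in TESR pre-ME over cjiPSCs in both protocols, 0 and 2 in cjPGCLCs over pre-ME with ActA, 0 and 3 without, 1 and 3 in somatic cells over pre-ME without ActA, and 1 and 2 between media in pre-ME + ActA. REC8 was called against cjiPSCs in several of these fits once cjPSCM cjiPSC replicate 2 was left out.

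The fit with the replicate number as a block called 1 gene (TDRD7) in somatic cells over pre-ME with ActA, where 0 were called without it, and left the other counts of calls as they were. With the numbers crossed in 3 comparisons, chosen after seeing the data, the counts stayed at 0, 2 and 2. At a limit of 0.627 CPM, 22 genes were low in TESR pre-ME + ActA in place of 14. Depth limits the genes at 3 counts or fewer, whose absence from a condition cannot be told from a level under 0.136 to 0.627 CPM.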
